A study of Mus musculus with 2 samples.

Results

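Cytosolic ribosomal protein genes were read on 2 arrays of mouse splenocytes, 1 from mice immunized with glucose-6-phosphate isomerase (GPI) to induce arthritis and 1 from control mice. The members were found by name. A probe set, the group of short oligonucleotide probes that reads a transcript on an Affymetrix mouse 430A 2.0 GeneChip, was taken where the platform annotation gave it exactly 1 gene symbol and that symbol was Rpl or Rps with a digit, Rplp0, Rplp1, Rplp2 or Rpsa. Kinases of the Rps6k group and pseudogene symbols were left out. This gave 48 genes, read by 100 probe sets, of the 12393 genes so named on the array. The large subunit had 26 genes with 46 probe sets and the small subunit 22 genes with 54 probe sets. Of the 48 genes, 42 are standard parts of the ribosome. The 6 others (Rpl3l, Rpl7l1, Rpl22l1, Rpl39l, Rps4l and Rps27l) are paralogs that match the name rule.

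Both groups were male mice of the DBA/1 strain, aged 6 to 8 weeks, and all injections were given in complete Freund's adjuvant according to the methods. The GPI-immunized mice received 300 μg of recombinant human GPI fused to glutathione S-transferase (GST), and the control mice 100 μg of GST, so that adjuvant and carrier protein were shared. Spleens of 3 mice per group were taken on day 10, and the labels and methods do not say whether their RNA was pooled for the single array of each group. With 1 array per group there were no replicates, no test was possible, and every ratio describes these 2 arrays. The comparison asks how splenic transcripts differ between mice given GPI and mice given the carrier alone.

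The eukaryotic ribosome has a small subunit, which holds the mRNA and decodes it, and a large subunit, which joins amino acids and passes the chain out through a tunnel. Most ribosomal proteins are present once in each ribosome. These mRNAs are among the most abundant of lymphoid cells. Most begin with a C followed by a run of pyrimidines, the 5′ terminal oligopyrimidine tract, through which the kinase mTOR controls how strongly they are translated. An array measures the level of the mRNA and not its translation.

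The tract is shown for the 8 members whose RefSeq transcript start (assembly GRCm38.p6) is a C followed by at least 4 pyrimidines, because it is the feature that these mRNAs are known to share and the name rule did not use it. In each sequence 40 bases precede the annotated start, and capitals mark the pyrimidine run from that start on, together with any C directly before it.
Rpl14, chr9:120571477-120571526, plus strand: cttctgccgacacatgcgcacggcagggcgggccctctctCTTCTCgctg
Rpl35, chr2:39005121-39005171, minus strand: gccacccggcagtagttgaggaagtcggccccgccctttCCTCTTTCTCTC
Rpl38, chr11:114668540-114668589, plus strand: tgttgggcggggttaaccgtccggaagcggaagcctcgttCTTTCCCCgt
Rplp2, chr7:141447611-141447660, plus strand: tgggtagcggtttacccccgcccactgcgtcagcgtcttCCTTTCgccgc
Rps6, chr4:86857358-86857407, minus strand: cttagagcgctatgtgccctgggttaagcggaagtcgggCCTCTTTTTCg
Rps10, chr17:27635235-27635284, minus strand: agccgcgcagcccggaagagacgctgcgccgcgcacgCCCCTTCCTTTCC
Rps18, chr17:33955656-33955705, minus strand: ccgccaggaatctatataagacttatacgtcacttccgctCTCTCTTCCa
Rps27, chr3:90213639-90213688, minus strand: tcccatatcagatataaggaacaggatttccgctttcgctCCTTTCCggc

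Of the 42 members with an entry in the RefSeq promoter table, these 8 (19.0%) had the tract at the annotated start, against 3.03% of the 9888 array genes with an entry and 0 of 65 mitochondrial ribosomal protein genes. Annotated starts can lie some bases away from the start that cells use. With a search up to 10 bases to either side the tract was found in 27 members (64.3%) and in 36.9% of the array genes. Of the 65 mitochondrial ribosomal protein genes, 29 (44.6%) had it in this wider search. Other short sequences were looked for on both strands, from 250 bases before to 50 bases after the start. CCGGAAG, the core of sites that ETS factors such as GABP bind, was present in 21 of the 42 members, against 16.3% of the array genes, 36.9% of the mitochondrial ribosomal protein genes and 37.5% of the ribosome assembly genes. AANATGGC, the core of the YY1 motif, was present in 7 members (16.7%) against 8.55% of the array genes and 30.8% of the mitochondrial ones, and GGGCGG, the core of SP1 sites, in 24 (57.1%) against 61.0%. These are matches of letters and not measured binding.

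Signals of most of these mRNAs were similar on both arrays. A signal is the intensity on a linear scale that the authors deposited for a probe set, and a ratio is the GPI-immunized signal over the control signal. Each gene was represented by its brightest probe set, and a gene was counted where at least 1 of its signals was 50.2 or more, which is the median over all signals of both arrays. This held for 45 of the 48 members and for 6961 of all genes. None of the 45 was at least 2-fold higher, where 2.23% of the 6961 genes were, and 1 was at least 2-fold lower, where 0.445% were. With a limit of 1.5-fold the members gave the same counts of 0 higher and 1 lower, against 7.05% and 3.23% of all genes. The ratio was above 1 for 27 of the 45 members (60.0%) and for 57.5% of all genes. A ratio within 1.1-fold of 1, a limit chosen after the values were seen, was found for 33 members (73.3%) and for 34.3% of all genes. Of these 33 members, 31 had a signal of at least 5000. The median log2 ratio was 0.017 over the members and 0.056 over all genes.

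**Figure D1:**
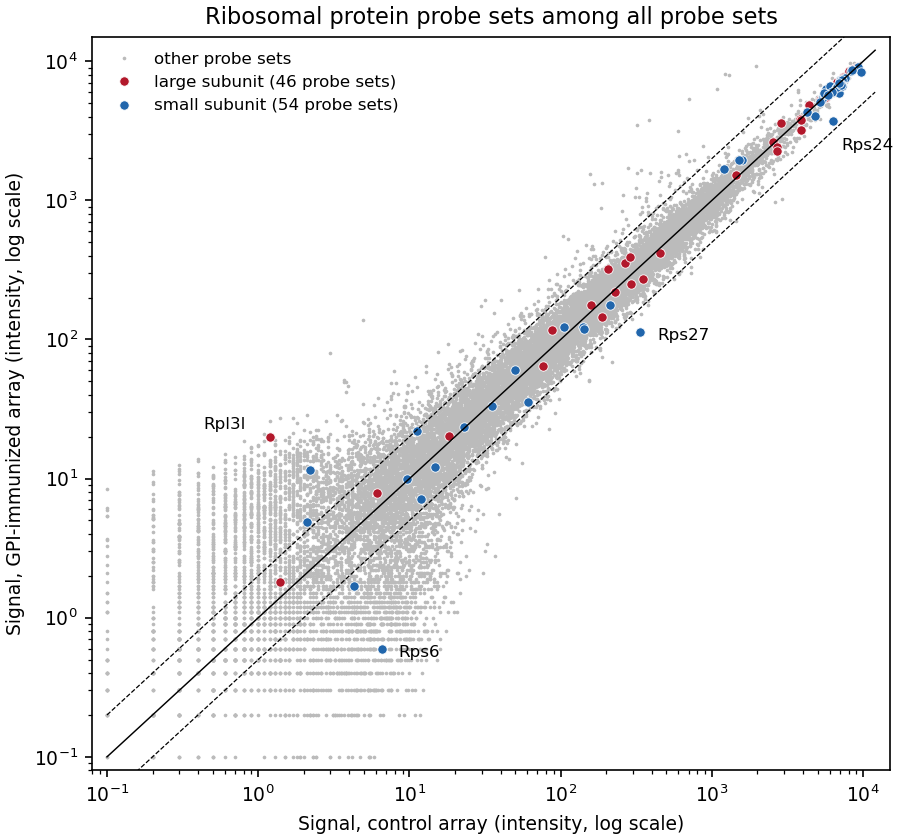
Each point is a probe set, placed by its intensity on the control array along the horizontal axis and on the GPI-immunized array along the vertical axis, both on log scales, with signals of 0 drawn at 0.1 and 1 array per group. The solid line is a ratio of 1 and the dashed lines are 2-fold ratios. Most ribosomal protein probe sets lie near the line of equality at the upper end, and wider ratios are found mostly at low signals.

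Agreement was closest where the signal was highest. By the brightest probe set named for the gene alone, the members fell into 36 bright and 12 dim genes. The higher signal was 1941.0 or more for the bright genes and 455.4 or less for the dim ones, with none between. Dim describes that probe set and not the amount of mRNA, since 8 of the dim genes also had a bright shared probe set (below). Among the bright genes the control signals ran from 1579.7 to 9204.6 and the GPI-immunized signals from 1941.0 to 9059.9. Their ratios ran from 0.914 (Rps28) to 1.27 (Rpl22), and 32 of 36 (88.9%) were within 1.1-fold. Of the 1523 genes with a signal at or above the 90th percentile (607.2), 38.5% were. The 2 shares are not matched in signal, since 32 of the 36 bright members had a signal of at least 5000. At that signal 31 of 32 members were within 1.1-fold, against 18 of 34 other genes. From 1000 to 5000, 1 of 4 members was, against 271 of 746 other genes. Probe sets of the same member differed with an SD of 0.145 on the log2 scale, a factor of 1.11 (16 genes with 48 bright probe sets). The ratios of 32 of the bright genes thus lay within about 1 such SD of 1. This SD holds no variation between mice or hybridizations. It includes Rps24, whose bright probe sets had ratios from 0.591 to 1.04, and so need not be technical error alone.

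The large subunit had a median log2 ratio of 0.050 (24 genes past the signal limit, 17 or 70.8% above 1). The small subunit had -0.003 (21 genes, 10 or 47.6% above 1). Over all genes the median was 0.056 and 57.5% were above 1. Summed over the genes, signals of the large subunit were 115142.7 on the control and 119131.5 on the array of the GPI-immunized mice, a ratio of 1.035, and those of the small subunit 117916.8 and 118175.5, a ratio of 1.002. Whether the subunits differ could not be tested with 1 array per group. In splenocytes, as in any mixed cells, fewer cells of a type and less RNA per cell cannot be told apart.

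The stalk of the large subunit recruits the translational GTPases. Of its proteins, the stalk base Rplp0 had signals of 5856.0 (control) and 6070.8 (GPI-immunized) and a ratio of 1.04, and Rplp2, which forms the flexible arms, had 9118.6 and 9059.9, a ratio of 0.994. Both were read on each array at a similar level. Rpl11, which binds 5S rRNA and can restrain the p53 inhibitor Mdm2, had 4371.2 and 4826.3, a ratio of 1.104.

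Of the 4 measured proteins around the exit tunnel, 3 had bright probe sets with ratios within 1.1-fold, and Rpl39 was dim, at 0.853. Rpl4, part of the narrowest place of the tunnel, had signals of 7332.2 and 7640.0 (ratio 1.04). Rpl19, at the outer end, had 6165.1 and 6162.7 (ratio 1.00). Rpl35, a docking site for factors that meet the new chain, was read by 5 bright probe sets with ratios from 0.981 to 1.044, and by another whose signals of 18.2 and 20.2 lay under the limit.

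Among the other large subunit genes with a strong signal, Rpl8 (5791.7 and 6294.8, ratio 1.09) and Rpl7a (6739.9 and 7121.8, ratio 1.06) were the highest below Rpl11, and Rpl6 (5720.2 and 5554.7, ratio 0.971) and Rpl37a (7255.4 and 7164.9, ratio 0.988) were the lowest. Rpl38, Rpl41, Rpl13a, Rpl7, Rpl10a and Rpl27 lay between these on their brightest probe sets, with ratios from 1.01 to 1.05. Other probe sets gave 0.899 and 0.835 for Rpl27, 1.01 and 0.827 for Rpl7, and from 0.770 to 1.12 for Rpl41. Those of Rpl13a ran from 1.01 to 1.045.

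Rpl22 had the highest ratio among the bright genes, on 1 of its probe sets. This protein is dispensable for translation as such and is known for its role in the development of αβ T cells. Its brighter probe set had signals of 2844.0 (control) and 3615.2 (GPI-immunized) and a ratio of 1.27. The other probe set had 227.1 and 217.7, a ratio of 0.959, so that the probe sets did not point the same way. Its paralog Rpl22l1, which can take its place in the ribosome, had 3794.2 and 3840.1, a ratio of 1.01.

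In the small subunit, Rps3 lies at the entry of the mRNA and also acts in DNA repair. It had signals of 5538.1 and 5948.3, a ratio of 1.07. Rps19, the gene mutated most often in Diamond-Blackfan anaemia, had 5997.4 and 6672.1, a ratio of 1.11, the highest bright ratio of a standard small subunit gene. Rps28 had the lowest bright ratio, 0.914, from 7215.9 and 6592.4, and its other probe sets gave 0.965 and 0.972. Between them lay, in rising order of ratio, Rps7, Rps18, Rps20, Rps2, Rps29, Rps9, Rps26, Rps10, Rpsa, Rps4x, Rps3a1, Rps14, Rps15 and Rps24. On the brightest probe set of each, values ran from 0.956 to 1.04. Neighbours in this order differed by less than the spread between probe sets of a gene. Of the 11 measured genes whose human counterparts are mutated in Diamond-Blackfan anaemia, an inherited failure of red cell production, 8 (72.7%) were within 1.1-fold, a share near that of all members, and Rps27 was more than 2-fold away.

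**Figure D2:**
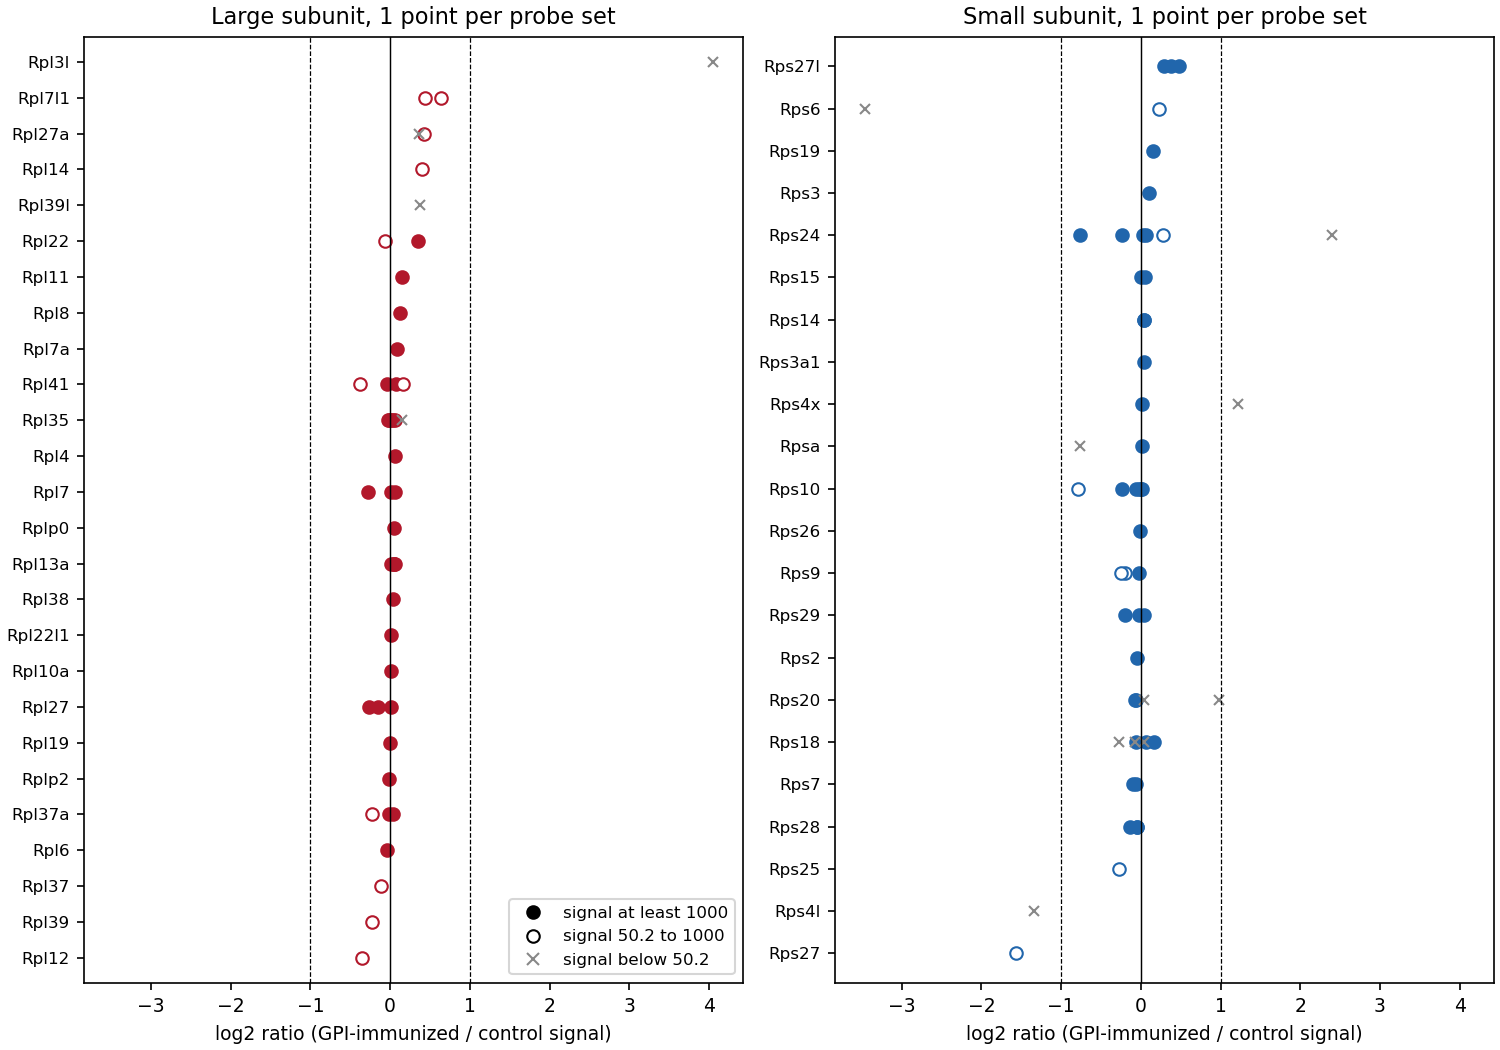
Horizontal axis, log2 of GPI-immunized over control signal for every probe set of the 48 genes (vertical axis), large subunit on the left and small subunit on the right, 1 array per group. Filled points have a higher signal of at least 1000, open points lie between 50.2 and 1000, and crosses lie below 50.2, where the ratio is poorly determined. Dashed lines are 2-fold ratios. Among filled points the farthest from 0 are a probe set of Rps24 at -0.76 and one of Rps27l at 0.48, and the open point of Rps27 lies at -1.56.

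Rps27 was the member that was more than 2-fold lower. Its protein is a zinc finger protein on the solvent side of the small subunit. The probe set named for it alone had signals of 335.8 (control) and 113.6 (GPI-immunized) and a ratio of 0.338. Both signals lay on the dim side of the gap between the member genes. Another probe set, which the annotation assigns jointly to Rps27 and the retrogene Rps27rt, had 7716.4 and 7054.3, a ratio of 0.914. The dim and the bright probe set therefore gave very different ratios, and which transcript the dim one reads was not tested. The paralog Rps27l, a known target of p53, was read by 3 probe sets with ratios of 1.23, 1.29 and 1.40. Its brightest had 1579.7 and 1941.0, and all 3 were higher on the GPI-immunized array.

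Shared probe sets were also compared for the other dim genes. For all 8 standard members that were dim (Rpl12, Rpl14, Rpl27a, Rpl37, Rpl39, Rps6, Rps25 and Rps27), a further probe set exists that the annotation assigns to the gene together with other symbols and that has a signal over 1000. These shared probe sets had ratios from 0.914 to 1.08. For Rpl37 (0.923 alone, 0.958 shared) and Rps6 (1.18 alone, 1.08 shared) the difference was within the spread between bright probe sets of a gene. For Rpl12 (0.784 alone, 1.02 shared), Rps25 (0.825, 1.06), Rpl14 (1.32, 0.935) and Rpl27a (1.34, 0.981) the ratios lay on opposite sides of 1. Rpl39 (0.853, 0.967) and Rps27 were below 1 on both. The dim paralogs had no shared probe set. The brightest probe sets named for the gene alone had ratios that ran from 0.338 to 1.34. Rpl12, at the base of the stalk, had the lowest of these in the large subunit, 0.784 from signals of 348.9 and 273.7. Rps25, which some viral mRNAs need for initiation, had 213.4 and 176.0, a ratio of 0.825. Rpl39, which lines the tunnel, had 76.2 and 65.0, a ratio of 0.853, and Rpl37 455.4 and 420.4, a ratio of 0.923. Above 1 on the probe set named for the gene alone was Rps6, the substrate of the S6 kinases, with 104.6 and 123.0 (ratio 1.18). So were Rpl14 with 265.6 and 351.9 (ratio 1.32) and Rpl27a with 87.1 and 116.6 (ratio 1.34). In all, 102 probe sets had several symbols of which at least 1 matched the name rule. Of the 96 with a signal of at least 50.2, 77.1% were within 1.1-fold and the median log2 ratio was 0.019. They carry the symbols of 30 further genes of the name rule, which no probe set of their own reads and which are therefore not among the 48.

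Rps24 was the member whose probe sets differed most at a sufficient signal. Its mRNA is known to be spliced in several ways near the 3′ end. The probe sets with the highest signals had 6999.9 and 7306.3 (ratio 1.04) and 7024.0 and 7167.4 (ratio 1.02). Another bright one had 6923.5 and 5870.1 (ratio 0.848), and the last had 6287.5 (control) and 3713.2 (GPI-immunized), a ratio of 0.591. This was the lowest ratio of any of the 54 member probe sets with a signal of at least 5000. A dim probe set of the same gene had 49.9 and 60.3 (ratio 1.21). Which form each of them reads was not tested. Rps10 was similar, with 5 bright probe sets between 0.848 and 1.01 and a dim one of 61.2 and 35.6 (ratio 0.582).

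The remaining paralogs were at low signals. Rpl7l1, a nucleolar relative of Rpl7 that takes part in ribosome assembly, had 288.9 and 392.3 (ratio 1.36) on one probe set and 206.1 and 319.5 (ratio 1.55) on the other. Rpl3l, the form of Rpl3 in striated muscle, was listed at 1.2 on the control and 19.9 on the GPI-immunized array, Rpl39l at 6.1 and 7.9, and Rps4l at 4.3 and 1.7. The 15 probe sets for Bacillus subtilis transcripts (dap, lys, phe, thr and trp), which are other probe sets than the hybridization controls, reached at most 14.1 on the control and 6.3 on the GPI-immunized array. Signals this close to theirs give no reliable ratio, and none is given for these 3 genes. They are the members under the signal limit.

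Signals of the members lay near the top of what the arrays recorded. The highest signal of any probe set was 9642.3 on the control and 9762.3 on the GPI-immunized array, the former from a probe set of Rps29. Of the 100 probe sets with the highest mean log2 signal, 32 were members and 40 more had several symbols including that of a ribosomal protein. At a signal of at least 5000, 31 of 32 member genes were within 1.1-fold (SD of the log2 ratio 0.059, brightest probe set of each gene), against 18 of 34 other genes (SD 0.249), among which the ratio ran from 0.790 (Slc4a1) to 1.68 (Hspa8). Over all member probe sets at this signal, 49 of 54 were within 1.1-fold and the SD was 0.127, against 50 of 81 other probe sets. At lower signals the members were not closer to 1 than other probe sets. From 500 to 5000, 35.7% of 14 member probe sets were within 1.1-fold, against 35.0% of the others. From 50 to 500, 11.1% of 18 were, against 31.0%. Between 1000 and 5000 there were 4 members, Rpl22, Rps27l, Rpl11 and Rpl22l1, with ratios above 1 in each case, as had 57.4% of the 746 other genes of this signal range. After division of each array by its median, Rpl22l1 was at 0.951. Among the 10 neutrophil markers the 3 brightest had the smallest ratios. Camp, the next in signal (3726.3 and 6034.0), had the next smallest, 1.62. Below Camp, from Elane (920.4 and 1635.9, ratio 1.78) to Lcn2 (2071.0 and 4438.3, ratio 2.14), the ratio was higher at higher signals. Ngp, with 6300.4 and 8282.0, had a ratio of 1.31. S100a8, with 8141.5 and 9644.9, had a ratio of 1.18 and S100a9, with 8697.7 and 9762.3, one of 1.12. The dimmest, Mmp8 with 254.2 and 834.7 and Mmp9 with 146.2 and 477.3, had 3.28 and 3.265. How far signals of this height still follow the amount of RNA was not tested.

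**Figure D3:**
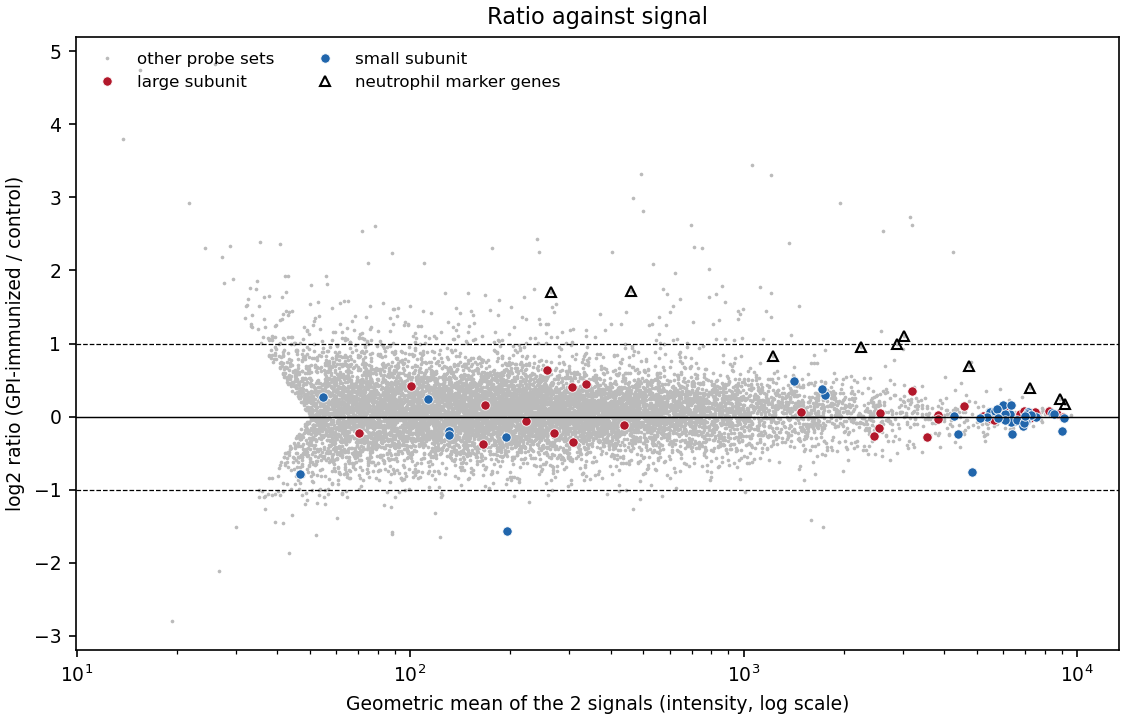
Log2 of GPI-immunized over control signal (vertical axis) against the geometric mean of the 2 signals (horizontal axis, log scale) for probe sets with a signal of at least 50.2, with the neutrophil marker genes as triangles, 1 array per group. Dashed lines are 2-fold ratios. Ribosomal protein probe sets above 5000 lie in a narrow band around 0, and the 3 rightmost triangles are the ones closest to 0.

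Ribosome assembly factors, mitochondrial ribosomal proteins and initiation factors had mostly higher signals on the GPI-immunized array. The ribosomal proteins, most of them read at much stronger signals, centred near a ratio of 1. No test was possible for these lists. Assembly factors, which process rRNA and join proteins to it in the nucleolus, had a ratio above 1 for 36 of 39 genes with sufficient signal (92.3%, against 57.5% of all genes), with a median ratio of 1.21 (log2 0.274). Of these 39, 6 were at least 1.5-fold higher and 0 at least 1.5-fold lower, where 7.05% and 3.23% of all genes were. Nop16 had signals of 182.9 and 304.7 (ratio 1.67), Rrp12 49.5 and 81.9 (ratio 1.655), Bysl 164.4 and 260.7 (ratio 1.59), Nolc1 336.6 and 532.9 (ratio 1.58), Nop58 171.6 and 259.5 (ratio 1.51) and Nip7, exactly at the limit, 257.6 and 386.4. The abundant nucleolar proteins nucleophosmin (Npm1, 3698.5 and 4205.3, ratio 1.14), nucleolin (Ncl, 2792.5 and 3245.0, ratio 1.16) and fibrillarin (Fbl, 1265.6 and 1493.1, ratio 1.18) were less far from 1. Among 11 genes of RNA polymerase I and its factors, which transcribe rRNA, 7 (63.6%) were above 1, a share near the 57.5% of all genes, with a median log2 ratio of 0.165. The highest was the largest subunit Polr1a with 99.0 and 160.6 (ratio 1.62).

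Mitochondrial ribosomal proteins, which build the separate ribosome of the mitochondrion, had ratios above 1 for 67 of 74 genes (90.5%, against 57.5% of all genes), with a median ratio of 1.21 (log2 0.271). They ran from 0.920 (Mrps9) to 1.98 (Mrpl35), and 4 of the 74 were at least 1.5-fold higher, where 7.05% of all genes were. Of 34 genes listed with the initiation factors, 29 (85.3%) were above 1 (median log2 ratio 0.209). They were led by the RNA helicase Eif4a1 with 1730.1 and 2539.9 (ratio 1.47) and the cap-binding protein Eif4e with 789.3 and 1128.6 (ratio 1.43). The list also holds the Eif4e-binding proteins Eif4ebp1 (ratio 1.16) and Eif4ebp2 (ratio 0.917), which are not initiation factors themselves. Elongation factors were nearer to the ribosomal proteins, with Eef1a1 at 7870.0 and 8505.5 (ratio 1.08) and Eef2 at 3633.0 and 4015.1 (ratio 1.11). The median log2 ratio was 0.087 over 6 listed genes, which include the kinase Eef2k (ratio 0.951) and Eef1e1 (ratio 1.44). A further list held 16 genes, not members, whose mRNAs are known to carry the pyrimidine tract. Of these, 13 (81.2%) were above 1 and 9 (56.2%) within 1.1-fold, against 57.5% and 34.3% of all genes. The median log2 ratio was 0.088. This list shares Eef1a1, Eef1b2, Eef1d and Eef2 with the elongation factors and Eif3e, Eif3f, Eif3h and Eif4b with the initiation factors. The lists are therefore not separate. The pyrimidine tract list also includes Fau, whose product contains a small subunit protein, with 5818.8 and 6083.3 (ratio 1.05), and Tpt1 with 8336.5 and 8545.3 (ratio 1.03).

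The median log2 ratio of the mitochondrial list was 0.254 above that of the cytosolic ribosomal proteins, that of the assembly factors 0.257 and that of the initiation factors 0.192. Signals of these lists differed too. The median of the higher signal was 356.6 for the mitochondrial genes, 333.0 for the assembly factors and 1171.2 for the initiation factors. None of them reached 5000, where 32 of the 36 bright ribosomal protein genes lay. The 4 members from 1000 to 5000 had a median log2 ratio of 0.220, and 746 other genes of that range 0.056. Past the 90th percentile of signal the medians were 0.258 (9 mitochondrial genes), 0.217 (9 assembly factors) and 0.220 (23 initiation factors). The part of this difference in signal in the distance between the lists was not tested.

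**Figure D4:**
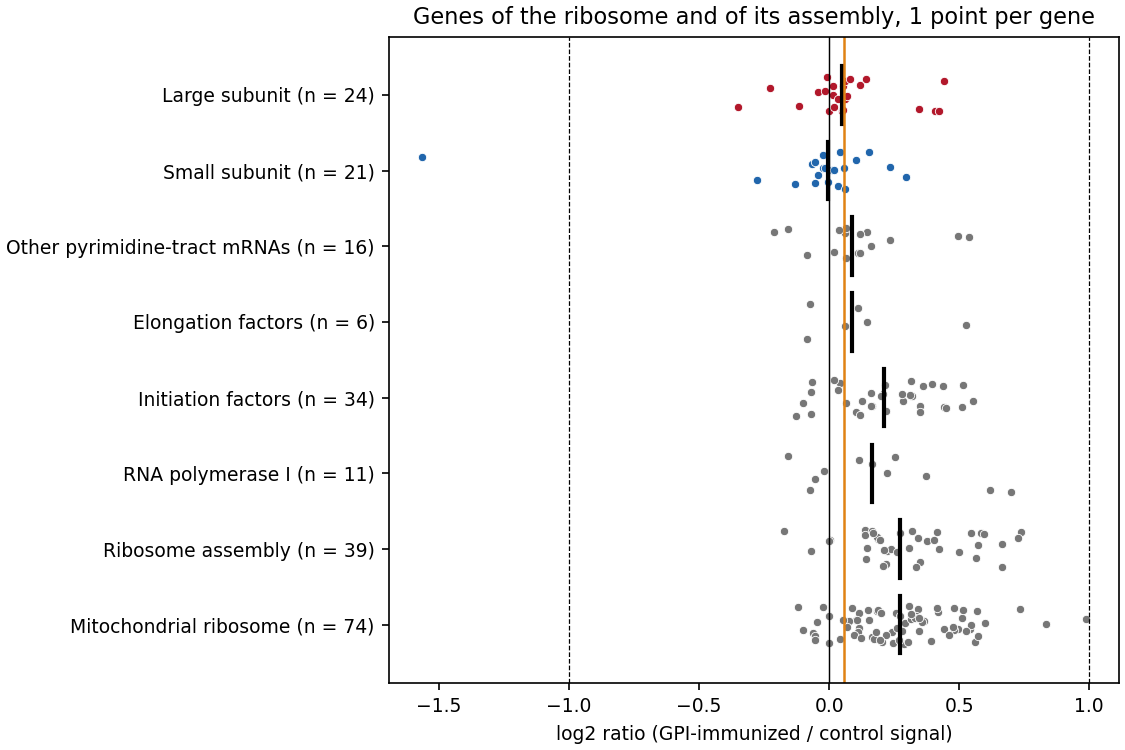
Horizontal axis, log2 of GPI-immunized over control signal, 1 point per gene with a signal of at least 50.2 and 1 array per group. Black bars are list medians, the orange line is the median of all genes (0.056) and dashed lines are 2-fold ratios. Both cytosolic subunits centre near 0 with Rps27 far to the left, while assembly factors and mitochondrial ribosomal proteins centre at 0.27.

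Spleen cell types are marked by genes whose signals also differed between the arrays. All 10 neutrophil genes had ratios above 1, and their summed signals were 33911.3 on the control and 48292.2 on the GPI-immunized array. All 7 measured T cell genes had ratios below 1 (summed signals 2015.3 and 1485.2), as did the 5 B cell genes with sufficient signal (12354.0 and 9475.8 over 6 genes, the sixth being Pax5 at 6.4 and 15.0), and, among genes with sufficient signal, the 3 red cell genes and the 3 NK cell genes. Of 5 macrophage genes 4 were above 1, and of the plasma cell genes Xbp1 had a ratio of 1.89 and Jchain 1.01. The sum over the ribosomal proteins was 233059.5 and 237307.0, a ratio of 1.018. The part of these shifts in the ratios of the ribosomal protein and assembly genes was not tested.

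Controls of the arrays differed as well. The 18 hybridization control probe sets (bioB, bioC, bioD and cre, of bacterial and phage origin) had a median ratio of 0.873, and 17 of them were below 1. The median of all probe sets was 48.65 on the control and 51.80 on the array of the GPI-immunized mice, a ratio of 1.06. Ratios of the 3′ to the 5′ probe set, a sign of RNA integrity, were 1.49 and 1.42 for β-actin, 0.946 and 0.839 for Gapdh and 6.41 and 6.25 for the transferrin receptor. For 18S rRNA, whose signals were at most 64.9, they were 1.48 and 2.41, and for pyruvate carboxylase, also dim, 3.03 and 3.10. A ratio of 1 for the ribosomal proteins therefore depends on the scale. After division of each array by its median, 10 of the 45 members (22.2%) and 45.1% of all genes were above 1, and the large and small subunits had medians of -0.041 and -0.094. After division by the ratio of the bacterial and phage controls, 41 of 45 (91.1%) and 79.4% were, and the medians were 0.247 and 0.194. Such divisions shift all genes alike and leave the distance between lists as it was. Quantile normalization and loess centring do not, and gave distances above the ribosomal proteins of 0.213 in each case for the mitochondrial list and of 0.209 and 0.213 for the assembly factors. With the mean over all probe sets these distances were 0.195 and 0.309. With the signal limit at the 90th percentile they were 0.233 and 0.192, where only 9 genes of each list and 36 members were left.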

How the data were processed

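The authors deposited 1 signal per probe set and array, an intensity on a linear scale, made with what the methods call gene expression software. The summarization, the scaling and any detection calls were not given in the sources used here. Labelling is described differently, as whole-transcript cDNA in the labels and as biotinylated cRNA in the methods. Of 22626 probe sets besides 64 control probe sets, 20380 have 1 symbol in the platform annotation, 691 several and 1555 none. All 100 member probe sets matched RefSeq (GRCm38.p6) by gene ID with the same symbol.

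Ratios were formed without scaling, and signals of 0 were set to 0.1. A gene was represented by its probe set of highest mean log2 signal. Members and lists were chosen with earlier results of these data known, and the limits of 1.1-fold and of a signal of 1000, as well as scaling to the bacterial and phage controls, after the values were seen. Genes were named by rule (the 10 lowest and 10 highest ratios per subunit, stalk and 5S genes, Rps6, Rps27a, paralogs, and genes with probe sets at least 2-fold apart). Rplp1, Rpl5 and Rps27a had no probe set of their own. The fold rule was run on simulated data to check the calculation, which does not show how well it performs on these arrays. The number of arrays, 1 per group, limits the precision. No protein sequences were used here. Python 3.11.15, numpy 2.4.6, pandas 2.3.3, statsmodels 0.14.6 and matplotlib 3.10.9 were used.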

Additional observations from a re-analysis of the deposited data

How the results depend on the processing

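The count of 0 members at least 2-fold higher was the same under each alternative except without a signal filter, where it was 1 (Rpl3l, listed at 1.2 and 19.9). The count of 1 at least 2-fold lower (Rps27) became 2 without a filter (with Rps4l), 2 with the mean over all probe sets (with Rps6, at 0.327 through a probe set of 6.6 and 0.6) and 0 where a signal at or above the 90th percentile was required. The 27 members with a ratio above 1 became 10 after division by the median and 41 after division by the bacterial and phage controls. With the latter, 5 in place of 33 were within 1.1-fold (11.1%), a smaller share than the 23.9% of all genes. The subunit medians moved from 0.050 and -0.003 to 0.247 and 0.194. Quantile normalization and loess centring gave 19 and 22 above 1 (42.2% and 48.9%), where 46.5% and 48.4% of all genes were. Leaving out probe sets marked as shared (_x_at, _s_at) left 39 members, of which 24 (61.5%) were within 1.1-fold, against 33.6% of all genes. Single ratios moved by at most 0.145 (log2) for 45 of 45 members under quantile normalization and loess centring, for 37 of 45 with the mean over probe sets and for 36 of 39 without shared probe sets. They moved by more for all 45 after division by the bacterial and phage controls. Division by the median and the floor could not move them by more, by construction. The other limits were the lack of replicates and signals near the top of the arrays. No paired analysis was possible because each group has 1 array.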
